A study of Mus musculus with 24 samples.

Results

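Cultured myotubes that had received only vehicle were compared between mdx and C57 mice, to describe how the lines differ before any hormone is given. The 6 libraries were 3 from mdx myotubes (genotype C57BL/10-Dmdmdx, with a mutation of the dystrophin gene) and 3 from C57 myotubes (genotype C57 BL/10), chosen by labelled cell type and treatment out of 24 libraries in the series. All 6 cultures began as primary myoblasts of hindlimb muscle from pups younger than 5 days, were grown with basic FGF and fused under reduced serum. They then received 0.001% DMSO for 48 h in medium whose horse serum had been stripped of steroids. Medium was renewed, and the cells were lysed 15 h later. The other libraries used below are myotubes of both lines given 1 µM aldosterone, and fibroblasts of both lines given medium from vehicle myotubes of their own line. The mutation and any other difference between the mdx and C57 colonies cannot be told apart in this design. Replicates are labelled as biological, but the labels do not say how many pups stood behind a culture.

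Myotubes are the multinucleate precursors of muscle fibres and form when myoblasts leave the cell cycle and fuse. Dystrophin sits under their membrane, where it ties the actin cytoskeleton to laminin outside the cell through dystroglycan and the sarcoglycans. The mdx mouse lacks full-length dystrophin and is a widely used model of Duchenne muscular dystrophy, with fibre loss, repair, inflammation and scarring in the animal.

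Levels are CPM (read counts relative to the scaled library total), and totals ran from 14133165 to 30167246 counts in mdx libraries and from 14578755 to 31144746 counts in C57 libraries. Differences are log2 changes of mdx over C57 from edgeR's quasi-likelihood test. A gene was called at a Benjamini-Hochberg adjusted p below 0.05 over the 15763 genes tested. Along the first principal component, which held 46.2% of the variance, mdx libraries stood at -18.7, -26.8 and -1.16, against 27.8, 8.32 and 10.5 for C57 libraries. The lines were separated on this axis, with mdx replicate 3 nearest to C57. Library pairs correlated at 0.9711 to 0.9774 within mdx, 0.9713 to 0.9951 within C57 and 0.9451 to 0.9837 between lines, in log2 CPM. The closest pair across lines was thus more alike than any pair within mdx. Xist, the transcript of the inactive X chromosome, was counted at most 2 times in mdx replicate 2 and C57 replicate 1 and at least 10323 times in each of the other 4 libraries.

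In mdx most of the Dmd transcript was gone and Tlr4 transcripts were present, where C57 had no Tlr4 count. Next by p among protein-coding genes, Rab6b and Mri1 were lower in mdx and Ttc37, Cdk5rap1 and Glrx higher. Further calls, at larger p, were lower Esm1, Hpgd and Fgf6 and higher Spp1, Glipr2, Col7a1 and Itga2. In all, 57 genes were called (0.362% of those tested), of which 22 were higher in mdx (0.14%) and 35 lower (0.222%). The called genes comprised 50 protein-coding genes, 4 long non-coding RNAs, 2 processed pseudogenes and 1 unclassified transcript. At an unadjusted p under 0.05, 2273 genes (14.4%) differed, 1273 higher in mdx (8.08%) and 1000 lower (6.34%). DESeq2 called 373 genes (2.23% of those it tested), 207 higher (1.24%) and 166 lower (0.993%), and its counts for gene lists below stand beside those shares. For all 57 called genes the libraries of the lines did not overlap, as was so for 3069 genes (19.5%) overall. The count depended on single libraries: it was 24, 20 and 104 without mdx replicate 1, 2 or 3, and 35, 21 and 21 without C57 replicate 1, 2 or 3, and 16 genes were called in each of these fits. The 16 were Tlr4, Dmd, ENSMUSG00000121059, Rab6b, Ttc37, Mri1, Cdk5rap1, Gm47040, Glrx, Esm1, Zfp874a, Gcsh, Ddx4, Glipr2, Tmem254 and Nlrc3, and each of the other 41 calls was lost in at least 1 of these fits. These p-values draw on the spread of 12 myotube libraries, in which vehicle and aldosterone libraries of a number deviated together. With the 6 vehicle libraries alone 6 genes were called, namely Tlr4, Dmd, ENSMUSG00000121059, Rab6b, Ttc37 and Mri1, and with vehicle and aldosterone libraries of a number treated as 1 culture in limma 85 were called, 49 of them among the 57. The 8 not called there were Esm1, Rsl1, Ifit1, Duxbl1, Kank4, Cdh1, 1700030C10Rik and Slc4a11, with adjusted p from 0.0571 for Esm1 to 0.0695 for Duxbl1. With the 4 vehicle libraries that held Xist and their aldosterone partners 179 were called, 20 higher and 159 lower, a setting chosen after seeing the data. Its C57 vehicle libraries were replicates 2 and 3, where the macrophage markers described below summed to 625 and 367 CPM. Its mdx vehicle libraries, replicates 1 and 3, held 7.27 and 22.5 CPM. Line and macrophage markers thus differ together in this setting, and the part of macrophages in its calls was not tested.

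**Figure D1:**
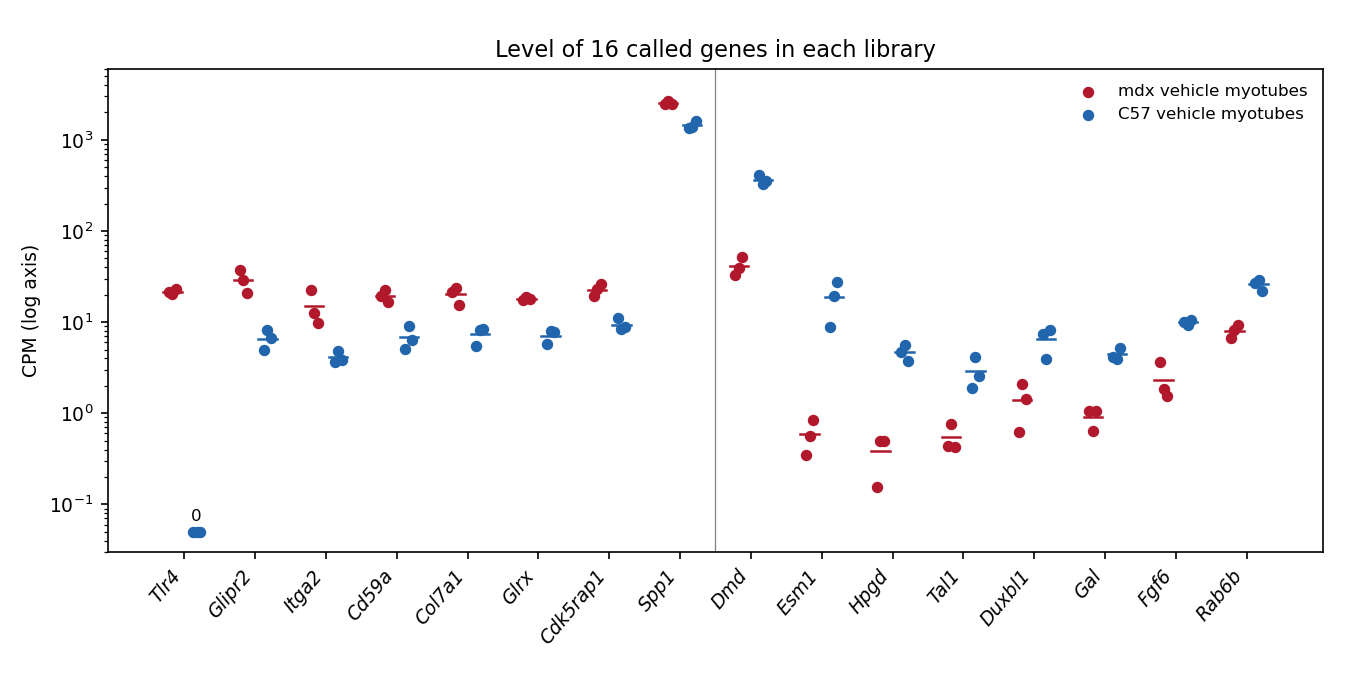
Level of 16 called genes in each vehicle library (CPM, log axis), with mdx in red on the left of each pair and C57 in blue on the right. Points are libraries, bars are means of 3, and libraries with a count of 0 are drawn at the foot of the axis. Within every gene shown the mdx points and the C57 points do not overlap.

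Dmd, the mutated gene, encodes dystrophin (ENSMUSG00000045103, mm39 chromosome X, 81992476 to 84249747). Its level was 32.6, 38.9 and 51.9 CPM in mdx myotubes, against 415, 331 and 355 CPM in C57 myotubes. Every mdx library was far below every C57 library for this gene, which the mdx genotype label names. The change was -3.16 (SE 0.21, adjusted p = 5.8e-05). Transcript was thus still measured in every mdx library, and counts per gene do not tell which isoforms it came from. Levels of different genes can be compared only per length, which the deposited FPKM values allow. By mean FPKM, Dmd was 1.85 in mdx and 16.6 in C57, which placed it 21st in mdx and 11th in C57 among 24 genes of the dystrophin complex and its glycosylation. Utrn, encoding the related utrophin, was at 16.6 FPKM in mdx and 18.3 FPKM in C57.

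Dmd was the sole member of that list to be called, and the median change of the list was -0.13, beside -0.000725 over all genes tested. That median was -0.05 without mdx replicate 1, -0.07 without C57 replicate 1 and -0.25 without mdx replicate 3. Utrn was at 252, 249 and 298 CPM in mdx myotubes and 313, 267 and 289 CPM in C57 myotubes, groups that overlapped (change -0.12, SE 0.11, adjusted p = 0.657). Sntb1, encoding a syntrophin that binds dystrophin, had a change of -0.58 (adjusted p = 0.204), and Sgca, encoding alpha-sarcoglycan, had -0.29 (adjusted p = 0.228). Sntb2, a second syntrophin gene, had 0.35 (adjusted p = 0.331). Of the 24 genes, 18 had a negative and 6 a positive change.

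Tlr4 encodes the receptor that senses bacterial lipopolysaccharide, on immune cells and on muscle cells (ENSMUSG00000039005, chromosome 4, 66745821 to 66848521). It reached 21.4, 20.5 and 22.9 CPM in mdx myotubes and had no count in any C57 library. Set against a floor of 3 counts per library, it was at least 150-fold higher in mdx (adjusted p = 1.71e-06). The long non-coding gene ENSMUSG00000121059 lies within the span of Tlr4 and showed the same split, at 4.26, 3.65 and 4.97 CPM in mdx and no count in C57 (at least 29.9-fold, adjusted p = 0.000598). Both lie on the plus strand, so reads from where they overlap may belong to either gene. Fibroblasts had the same pattern, with a mean of 30.2 CPM in mdx and no count in C57. A deletion of Tlr4 is known in the C57BL/10ScN substrain, and the labels of these C57 mice name no substrain; whether it is present here was not tested.

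Tlr4 was the only called gene on the list of toll-like receptor signalling. Of its 35 tested genes 13 had positive and 22 negative changes. The median was -0.06, and ran from -0.13 to 0.03 under the other settings. Ly96, encoding the co-receptor MD-2, was at 3.01, 3.58 and 2.70 CPM in mdx and 1.61, 1.82 and 1.84 CPM in C57 (change 0.81, adjusted p = 0.154). The receptor genes Tlr1, Tlr7, Tlr8 and Tlr9 were at 0.2104 CPM or less in every mdx library. In C57 replicates 2 and 3 these receptors ran from 0.546 to 3.31 CPM, and in C57 replicate 1 they were at 0.0871 CPM or less, the split that the macrophage markers below also show.

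Among cytokine and growth factor genes single members were called. Spp1 encodes osteopontin, a matrix protein and cytokine made in damaged muscle (ENSMUSG00000029304, chromosome 5, 104582984 to 104588916). It was at 2481, 2643 and 2477 CPM in mdx myotubes, against 1339, 1373 and 1623 CPM in C57 myotubes. The groups were well apart (change 0.81, SE 0.10, adjusted p = 0.00546), and Spp1 was the single called member of 23 tested cytokine genes, 18 of which had positive changes (median 0.52, or 0.07 without mdx replicate 1). Its reads may include those of the overlapping gene Gm42793. Lif, a cytokine of the interleukin-6 family, was at 19.4, 19.01 and 14.8 CPM in mdx and 10.8, 8.54 and 10.99 CPM in C57 (change 0.82, adjusted p = 0.12).

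Fgf6, a growth factor of muscle repair (ENSMUSG00000000183, chromosome 6, 126992549 to 127005150), went the other way, with 3.60, 1.82 and 1.56 CPM in mdx against 10.1, 9.40 and 10.5 CPM in C57 (change -2.04, SE 0.33, adjusted p = 0.026). It was the called member among 23 genes of the FGF axis. Gal, encoding the neuropeptide galanin, was at 1.07, 0.631 and 1.07 CPM in mdx and 4.18, 3.89 and 5.19 CPM in C57 (change -2.23, adjusted p = 0.0293). Igf2bp1, which encodes a binding protein of Igf2 mRNA, was higher in mdx, with 22.1, 20.1 and 14.3 CPM against 10.9, 9.34 and 9.56 CPM in C57 (change 0.93, adjusted p = 0.0433). It was the only called gene among 16 of the IGF axis. Fst, encoding the activin inhibitor follistatin, did not pass, at 88.9, 113 and 124 CPM in mdx and 174, 180 and 162 CPM in C57 (change -0.67, adjusted p = 0.0639).

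Esm1, a secreted proteoglycan of vessel walls (ENSMUSG00000042379, chromosome 13, 113346193 to 113354632), had among the largest decreases. It was at 0.345, 0.561 and 0.853 CPM in mdx and 8.80, 19.4 and 27.7 CPM in C57 (change -5.09, SE 0.56, adjusted p = 0.00364, or 0.0571 in limma with an estimated correlation within cultures). The C57 libraries spread widely, yet the lowest of them stood well above the highest mdx library. Fibroblasts of the lines were at a mean of 0.35 CPM in mdx and 49.9 CPM in C57.

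Several called genes act at the cell surface and in adhesion. Col7a1, the collagen of anchoring fibrils (ENSMUSG00000025650, chromosome 9, 108782654 to 108813943), was at 21.6, 23.9 and 15.3 CPM in mdx and 5.53, 8.26 and 8.47 CPM in C57 (change 1.46, SE 0.21, adjusted p = 0.0127). Itga2, the collagen-binding integrin subunit alpha 2 (ENSMUSG00000015533), was at 22.3, 12.7 and 9.88 CPM in mdx and 3.66, 4.88 and 3.82 CPM in C57 (change 1.87, adjusted p = 0.0381). It was the member called among 23 integrin-related genes, of which 16 had positive changes (median 0.19, from -0.04 to 0.29 under the other settings). Nectin1, a cell adhesion molecule, was also higher in mdx (30.3, 35.9 and 27.4 CPM against 17.5, 19.2 and 19.5 CPM in C57, change 0.74, adjusted p = 0.0483). Cd59a, which blocks complement on membranes, was at 19.4, 22.5 and 16.6 CPM in mdx and 5.095, 8.96 and 6.35 CPM in C57 (change 1.51, adjusted p = 0.0203). Cdh1, the epithelial cadherin gene, was low in both lines, at 0.345 to 0.355 CPM in mdx and 1.05 to 1.78 CPM in C57 (change -1.90, adjusted p = 0.0381).

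Orai1, Kcnn4 and Kcne1l, 3 of the called genes, encode parts of calcium or potassium channels. Orai1, the pore of store-operated calcium entry (ENSMUSG00000049686, chromosome 5, 123153137 to 123168519), was at 82.2, 76.9 and 73.3 CPM in mdx and 52.6, 50.9 and 53.7 CPM in C57 (change 0.57, SE 0.08, adjusted p = 0.0126). Its partner Stim1, the calcium sensor of the reticulum, was at 161, 204 and 267 CPM in mdx and 309, 260 and 266 CPM in C57, with groups that overlapped (change -0.40, adjusted p = 0.348). Orai1 was the called gene of 29 for excitation-contraction coupling and calcium, 26 of which had negative changes (median -0.32). Kcnn4, a calcium-activated potassium channel, was at 24.1, 29.4 and 17.8 CPM in mdx and 9.32, 12.6 and 12.2 CPM in C57 (change 1.07, adjusted p = 0.0192). Kcne1l, an accessory subunit of potassium channels, was at 1.91, 1.75 and 2.70 CPM in mdx and 5.57, 5.64 and 4.64 CPM in C57 (change -1.33, adjusted p = 0.0332).

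Several called genes encode enzymes, among them 2 that act in turn on prostaglandins. Hpgd, which oxidises prostaglandins as the first step of their breakdown (ENSMUSG00000031613, chromosome 8, 56747620 to 56774078), was at 0.157, 0.491 and 0.497 CPM in mdx and 4.70, 5.64 and 3.76 CPM in C57 (change -3.77, SE 0.56, adjusted p = 0.017). Ptgr1, a reductase of the oxidised products, was at 40.7, 33.3 and 29.1 CPM in mdx and 19.99, 20.5 and 20.5 CPM in C57 (change 0.76, adjusted p = 0.0381). Hpgd thus fell and Ptgr1 rose. Glrx, encoding the redox enzyme glutaredoxin, was at 17.5, 18.9 and 18.05 CPM in mdx and 5.70, 7.97 and 7.72 CPM in C57 (change 1.35, SE 0.16, adjusted p = 0.00364). Cdk5rap1, which modifies mitochondrial transfer RNAs, was at 19.4, 22.9 and 26.0 CPM in mdx and 11.02, 8.32 and 8.74 CPM in C57 (change 1.28, adjusted p = 0.00364). Gcsh, a subunit of the glycine cleavage system, was higher in mdx (change 0.83, adjusted p = 0.00425), and Mri1, of the methionine salvage pathway, was lower (change -0.70, SE 0.07, adjusted p = 0.00113).

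Among regulators and trafficking proteins, Glipr2, a Golgi-associated protein, was at 37.6, 28.8 and 21.0 CPM in mdx and 4.92, 8.29 and 6.62 CPM in C57 (change 2.14, SE 0.26, adjusted p = 0.00558). Rab6b, a GTPase of Golgi transport, was at 6.62, 8.205 and 9.24 CPM in mdx and 26.6, 29.1 and 21.99 CPM in C57 (change -1.71, SE 0.16, adjusted p = 0.000604). Ttc37, of the Ski complex that feeds RNA to the exosome, was at 44.6, 44.0 and 42.3 CPM in mdx and 25.4, 25.9 and 27.3 CPM in C57 (change 0.74, SE 0.07, adjusted p = 0.000604). For each of these 3 the libraries of the lines lay well apart. Cyld, a deubiquitinase that restrains NF-kappaB, was at 74.0, 52.4 and 63.8 CPM in mdx and 120, 109 and 114 CPM in C57 (change -0.85, adjusted p = 0.0285). Nlrc3, another restraint on innate signalling, had a change of -1.09 (adjusted p = 0.00558). Duxbl1, a double homeobox gene with near-identical copies among which reads may be split, had -2.29 (adjusted p = 0.0381). Tal1, a transcription factor of blood and vessel precursors, was at 0.439, 0.771 and 0.426 CPM in mdx and 1.92, 4.18 and 2.60 CPM in C57 (change -2.44, adjusted p = 0.0293).

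Promoter sequence is shown for Dmd, Spp1 and Fgf6, the mutated gene and the higher and lower secreted factors described above. Each line gives the 250 bases before the gene start as RefSeq gives it for build GRCm38.p6, 5′ to 3′ on the plus strand, with every CANNTG in capitals. CANNTG is the E-box that basic helix-loop-helix factors such as MyoD bind, and it reads as CANNTG on either strand.
Dmd, chrX:82948620-82948869: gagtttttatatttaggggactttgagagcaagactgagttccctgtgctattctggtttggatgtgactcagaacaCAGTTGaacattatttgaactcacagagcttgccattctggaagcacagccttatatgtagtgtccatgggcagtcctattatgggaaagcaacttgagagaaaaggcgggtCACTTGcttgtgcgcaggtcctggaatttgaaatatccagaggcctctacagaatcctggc
Spp1, chr5:104434861-104435110: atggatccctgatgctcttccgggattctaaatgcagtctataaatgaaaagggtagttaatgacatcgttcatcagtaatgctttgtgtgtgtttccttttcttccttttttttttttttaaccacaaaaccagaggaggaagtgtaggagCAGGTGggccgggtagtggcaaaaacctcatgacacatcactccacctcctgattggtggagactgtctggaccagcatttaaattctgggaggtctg
Fgf6, chr6:127015292-127015541: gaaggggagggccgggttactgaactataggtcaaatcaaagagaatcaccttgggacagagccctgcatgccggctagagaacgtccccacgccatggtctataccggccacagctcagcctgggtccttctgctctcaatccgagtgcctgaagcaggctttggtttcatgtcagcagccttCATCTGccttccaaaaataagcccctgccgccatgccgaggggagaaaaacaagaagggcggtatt
Dmd held 2 such words and Spp1 and Fgf6 1 each, as letter matches only. Of the called genes 40 had a promoter in this resource, and CANNTG was present in 7 of 13 genes higher in mdx and 18 of 27 lower in mdx, beside 66.0% of 27025 promoters of the same length. CAGCTG, 1 form of it, was present in 2 of 13 genes higher in mdx and 8 of 27 lower in mdx, beside 12.8% of all promoters. CAGGTG, read on both strands and the form found in Spp1, was present in 1 of 13 genes higher in mdx and 5 of 27 lower in mdx, beside 17.1% of all.

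Contractile genes lay slightly lower in mdx as a list, with no member called. Of 48 tested sarcomere genes 0 were called, 44 had negative changes, and for 18 every mdx library was below every C57 library, beside 9.45% of all genes; the median was -0.26, or -0.40 without mdx replicate 3. By edgeR 10 of the 48 had an unadjusted p under 0.05, all lower, beside 6.34% of all genes, and DESeq2 called 3, all lower. Tnni1, the slow skeletal troponin I gene, was at 1691, 1787 and 1888 CPM in mdx and 2218, 2323 and 2200 CPM in C57 (change -0.33, adjusted p = 0.163). Xirp2, a protein of the junctions that anchor actin, was at 249, 253 and 316 CPM in mdx and 381, 367 and 391 CPM in C57 (change -0.48, adjusted p = 0.16). For these genes mdx replicate 3 was the mdx library closest to C57. Over the summed list, mdx libraries held 49969, 55321 and 68743 CPM, against 73182, 67900 and 68856 CPM in C57 libraries, so that the lines overlapped in mdx replicate 3.

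Regulators of the muscle lineage also lay slightly lower as a list. Of 31 tested myogenic regulator and fusion genes 0 were called and 28 had negative changes (median -0.20, or -0.12 without C57 replicate 1). At an unadjusted p under 0.05, 5 were lower, beside 6.34% of all genes, and DESeq2 called 0. Myog, the factor that drives terminal differentiation, was at 516, 398 and 461 CPM in mdx and 588, 636 and 607 CPM in C57 (change -0.41, adjusted p = 0.222). Pax7, the factor of satellite cells, was at 10.0, 5.47 and 9.80 CPM in mdx and 15.1, 11.4 and 12.5 CPM in C57 (change -0.61, adjusted p = 0.415). Among 10 myosin heavy chain genes edgeR called 0, with 1 lower at an unadjusted p under 0.05, and DESeq2 called 1, lower. Myh1, a fast chain, was at 633, 632 and 805 CPM in mdx and 1283, 1002 and 958 CPM in C57 (change -0.65, adjusted p = 0.163). Myh3, the embryonic chain, overlapped between lines (change -0.23, adjusted p = 0.526), as did Myh7, the slow chain (change 0.07, adjusted p = 0.881). Neuromuscular junction genes had a median of -0.20 over 22 members, or -0.10 without C57 replicate 1 and -0.03 in the libraries with Xist. By edgeR and by DESeq2 0 of them were called. By edgeR 2 were higher and 3 lower at an unadjusted p under 0.05, beside 8.08% and 6.34% of all genes. Nuclear genes of oxidative phosphorylation had a median of -0.11 over 41, with 0 called by either tool and 0 at an unadjusted p under 0.05 by edgeR.

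**Figure D2:**
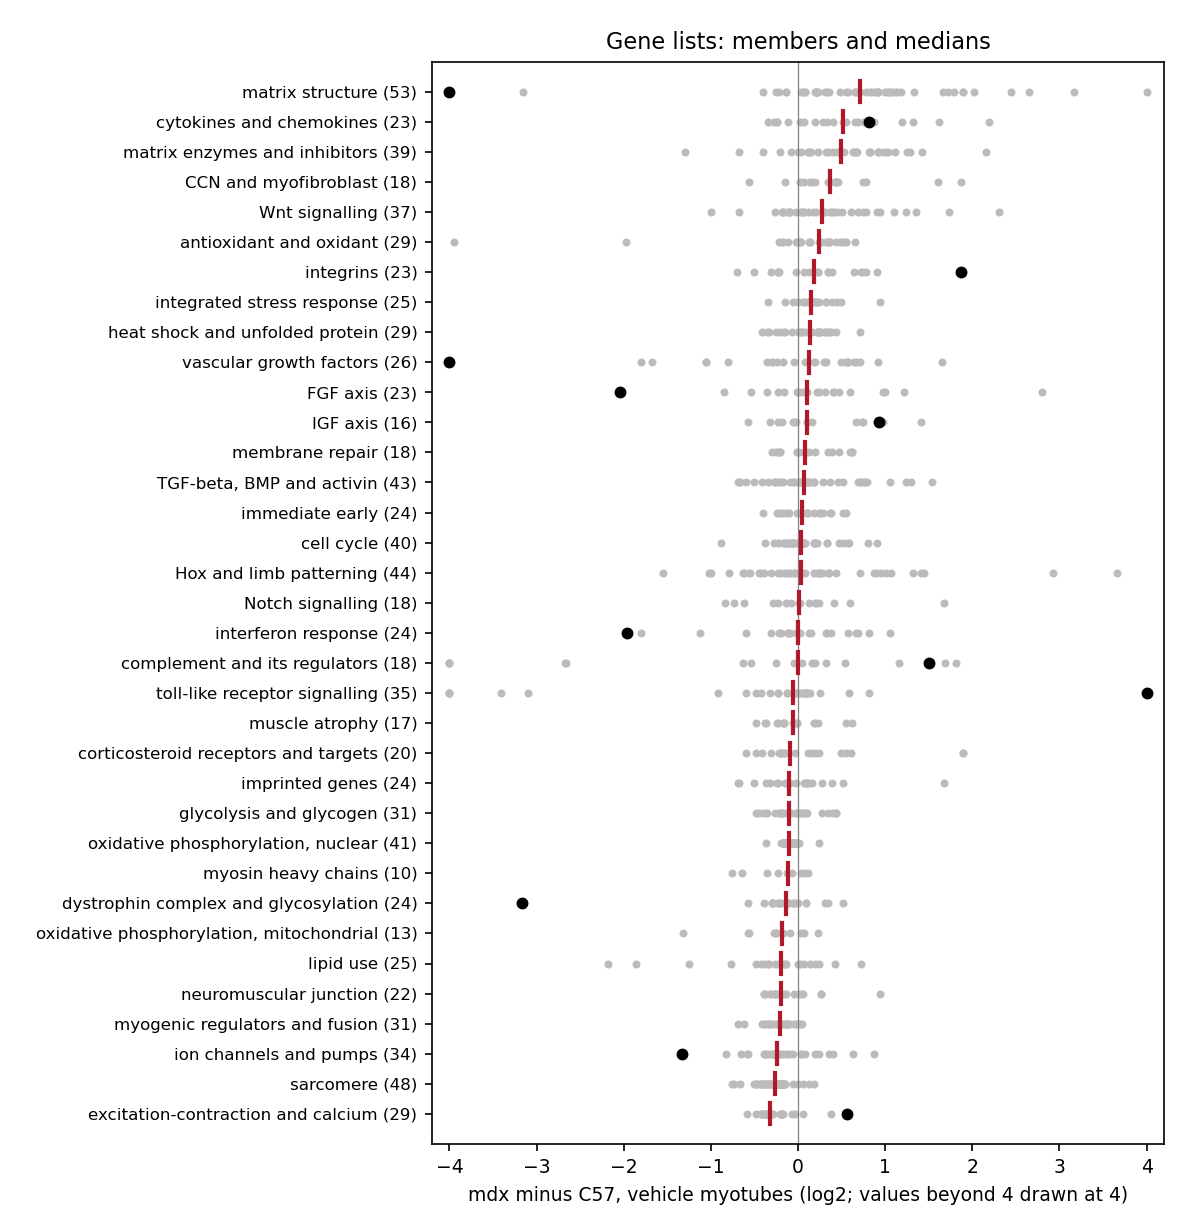
Change of each tested member (points) and the median (red bar) for the gene lists described, as log2 of mdx over C57 in vehicle myotubes, with the number of members tested in brackets. Black points are called genes. The list medians run from -0.32 for excitation-contraction and calcium genes to 0.71 for matrix structure.

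Matrix genes lay higher in mdx as a list, but with wide spread between libraries. Of 53 tested matrix structure genes 46 had positive changes (median 0.71), and for 15 every mdx library was above every C57 library, beside 10% of all genes. The called member, Esm1, fell, with an adjusted p of 0.0571 in limma with an estimated correlation within cultures, where 0 members were called. The median was 0.30 without mdx replicate 2 and 0.08 in the libraries with Xist, which leave out mdx replicate 2 and C57 replicate 1. Col1a1, the main chain of fibrillar collagen, was at 697, 1958 and 774 CPM in mdx and 160, 511 and 409 CPM in C57 (change 1.66, SE 0.59, adjusted p = 0.271). Fn1, encoding fibronectin, was at 5304, 7599 and 5021 CPM in mdx and 1954, 3741 and 3992 CPM in C57 (change 0.89, adjusted p = 0.228). The groups did not overlap for either gene, yet mdx replicate 2 was well above the other mdx libraries. Of 39 matrix enzyme and inhibitor genes 0 were called and 33 had positive changes (median 0.49, or 0.23 without mdx replicate 2), with 15 higher and 0 lower at an unadjusted p under 0.05, beside 8.08% of all genes higher, and DESeq2 called 4, all higher. Timp2, an inhibitor of matrix proteases, was at 1876, 1793 and 1194 CPM in mdx and 749, 981 and 1044 CPM in C57 (change 0.81, adjusted p = 0.136). Inhba, encoding the activin A subunit, was at 208, 212 and 150 CPM in mdx and 66.0, 99.5 and 109 CPM in C57 (change 1.05, adjusted p = 0.124). Of 43 genes of the TGF-beta, BMP and activin list 0 were called, while DESeq2 called 4 higher and 2 lower. At an unadjusted p under 0.05, 11 were higher and 3 lower, beside 8.08% and 6.34% of all genes. Ccn2, Postn, Acta2 and Tgfb1, commonly followed in fibrosis, overlapped between the lines, with changes of 0.37, 0.91, -0.15 and 0.09 and adjusted p of 0.608, 0.577, 0.644 and 0.732; those of Ccn2 and Tgfb1 were negative under some settings.

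Markers of other cell types moved with several of these results, and in bulk RNA a smaller number of such cells and less RNA in each cannot be told apart. The 20 fibroblast markers summed to 1621, 4734 and 1764 CPM in mdx and 464, 1279 and 955 CPM in C57, with no overlap. Of these, 16 were tested, 15 had positive changes (median 1.48), and 0 were called by edgeR and 1 by DESeq2. At an unadjusted p under 0.05, 10 were higher, beside 8.08% of all genes. Tcf21 had no count in any vehicle myotube library. The median of these markers was 0.82 without mdx replicate 2 and 0.51 in the libraries with Xist. In these sums and in the matrix lists mdx replicate 2 was highest. The markers include matrix genes, Col1a1 among them, so this is not a separate observation. The part of fibroblasts in the matrix result was not tested. The 15 endothelial markers summed to 40.0, 46.0 and 56.5 CPM in mdx and 88.9, 187 and 146 CPM in C57. All 13 tested had negative changes (median -1.16), and edgeR called 0 and DESeq2 called 4. At an unadjusted p under 0.05, 7 were lower, beside 6.34% of all genes. Cdh5, which encodes the cadherin of vessel junctions, was at 7.27, 10.5 and 11.5 CPM in mdx and 22.6, 47.1 and 37.4 CPM in C57 (change -1.89, adjusted p = 0.118). These sums, Esm1 and Tal1 were all lower in mdx, but within a line their order differed in part. Within C57 Tal1 ranked the libraries as the sum did, but Esm1 was highest in replicate 3. Within mdx Esm1 did so, but Tal1 was lowest in replicate 3, where the sum was highest. The part of endothelial cells in the calls of Esm1 and Tal1 was not tested.

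Macrophage markers separated C57 replicates 2 and 3 from the other 4 libraries rather than the lines. The 20 markers summed to 7.27, 54.9 and 22.5 CPM in mdx and 18.99, 625 and 367 CPM in C57, so that the lines overlapped. All 20 had negative changes (median -3.82), and edgeR called 0 and DESeq2 called 1. At an unadjusted p under 0.05, 5 were lower, beside 6.34% of all genes. Csf1r, the receptor of macrophage growth factor, was at 0.0941, 1.89 and 0.782 CPM in mdx and 1.13, 27.2 and 17.2 CPM in C57. Macrophages can also make Spp1, which was lower in C57 replicates 2 and 3 than in every mdx library. Fibroblasts held Spp1 at means of 6913 CPM in mdx and 7595 CPM in C57, and fibroblast markers were higher in mdx myotubes. The part of macrophages or fibroblasts in the level of Spp1 was not tested. Myoblast markers summed to 962, 886 and 982 CPM in mdx and 1092, 1016 and 1012 CPM in C57. The mdx sums were slightly lower, with no overlap. Of 10 tested, 7 had negative and 3 positive changes (median -0.11), and edgeR called 0. For 30% of them every mdx library was below every C57 library, beside 9.45% of all genes.

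**Figure D3:**
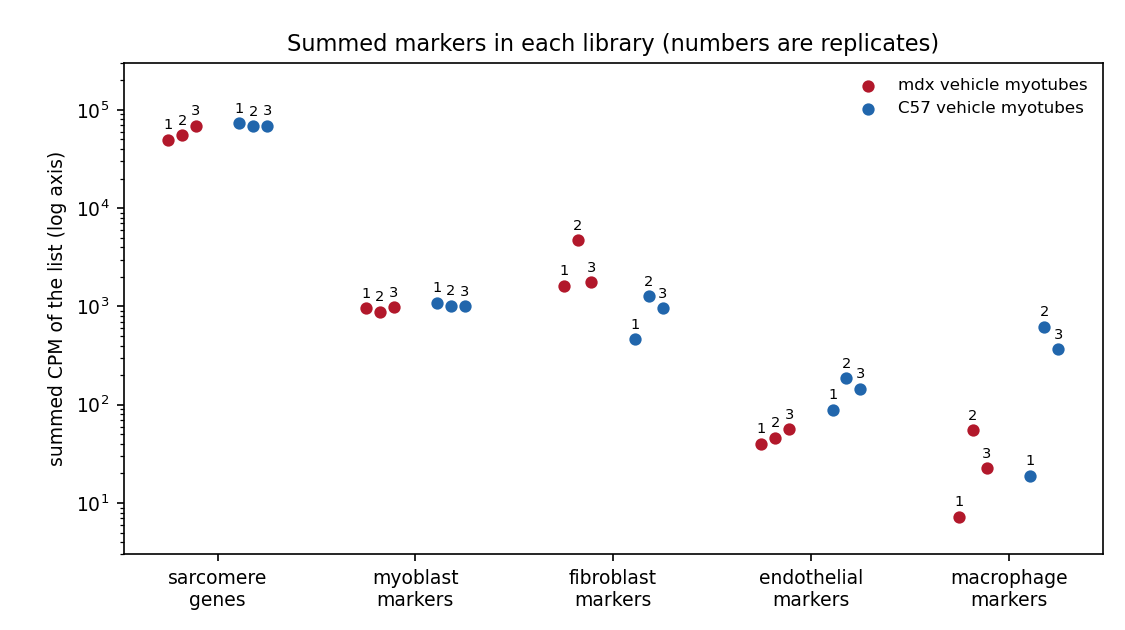
Summed CPM (log axis) of sarcomere genes and of marker lists in each vehicle library, with mdx in red on the left and C57 in blue on the right; the digits are replicate numbers. Fibroblast markers reach 4734 CPM in mdx replicate 2, and macrophage markers reach 625 CPM in C57 replicate 2.

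The called genes were then followed into the aldosterone-treated myotubes of the same lines. There 49 genes were called (0.311%), and 38 genes were called under both treatments, all in the same direction, which is 66.7% of the vehicle list and 77.6% of the aldosterone list. All 57 vehicle calls kept their sign. The difference of the line effect between treatments was called for 0 genes (0%) by edgeR and by DESeq2, with 152 of 15763 genes at an unadjusted p under 0.05 by edgeR. These fits treated same-numbered vehicle and aldosterone libraries as independent, which can hide such differences. In limma with an estimated correlation within cultures of 0.532, 0 genes were called as well. An absence of calls does not show an unchanged line effect. Same-numbered vehicle and aldosterone libraries correlated at 0.766 to 0.836 in mdx and 0.561 to 0.823 in C57 in their deviations from the line mean, so the treatments are not independent repeats of the line difference. Dmd, Tlr4 and Esm1 had changes of -3.15, 11.80 and -4.99 with aldosterone, where the value for Tlr4 depends on how a count of 0 is treated. Ifit1, an interferon-induced gene that had few counts, was at 0.408, 0.21 and 0.426 CPM in mdx and 1.35, 1.498 and 1.37 CPM in C57 with vehicle (change -1.96, adjusted p = 0.0326), and had a change of -0.75 with aldosterone (adjusted p = 0.244).

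Fibroblasts were used to see which calls recurred in another cell type of the same lines. They had received medium from vehicle myotubes of their own line. A line difference of the fibroblasts and one of the medium therefore cannot be told apart. Between fibroblasts 184 genes were called (1.1%). Of the 57 genes called in myotubes, 49 could be tested there and 38 had the same sign. A total of 21 were called in both cell types, all in the same direction, which is 36.8% of the myotube list and 11.4% of the fibroblast list. These included Tlr4, Dmd (change -1.48 in fibroblasts, adjusted p = 0.000342), Esm1 (-7.31, adjusted p = 2.05e-06), Rab6b (-1.73, adjusted p = 0.00128), Glipr2 (0.93, adjusted p = 0.000312), Orai1 (0.68, adjusted p = 0.000312), Cd59a (1.37, adjusted p = 0.000149) and Mri1 (-0.81, adjusted p = 1.6e-05). Spp1 had a change of -0.13 in fibroblasts (adjusted p = 0.888), at a mean of 6913 CPM in mdx and 7595 CPM in C57. Col7a1 had a change of -0.01 (adjusted p = 0.991) and Kcnn4 of 0.04 (adjusted p = 0.968). Fgf6, Tal1, Gal, Cdh1, Igsf1, Kcne1l, Ddx4 and Gm47040 had too few fibroblast counts to be tested. A difference between the cell types in the line effect was called for 1 gene (0.00574%), Pmaip1. By the same edgeR test 2071 of 17435 genes had an unadjusted p under 0.05. Among them were Col7a1 (difference 1.47, adjusted p = 0.0986) and Spp1 (difference 0.94, adjusted p = 0.148), which were not called. The count of called genes was 38 without C57 replicate 1, 309 without mdx replicate 3 and 363 by DESeq2.

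**Figure D4:**
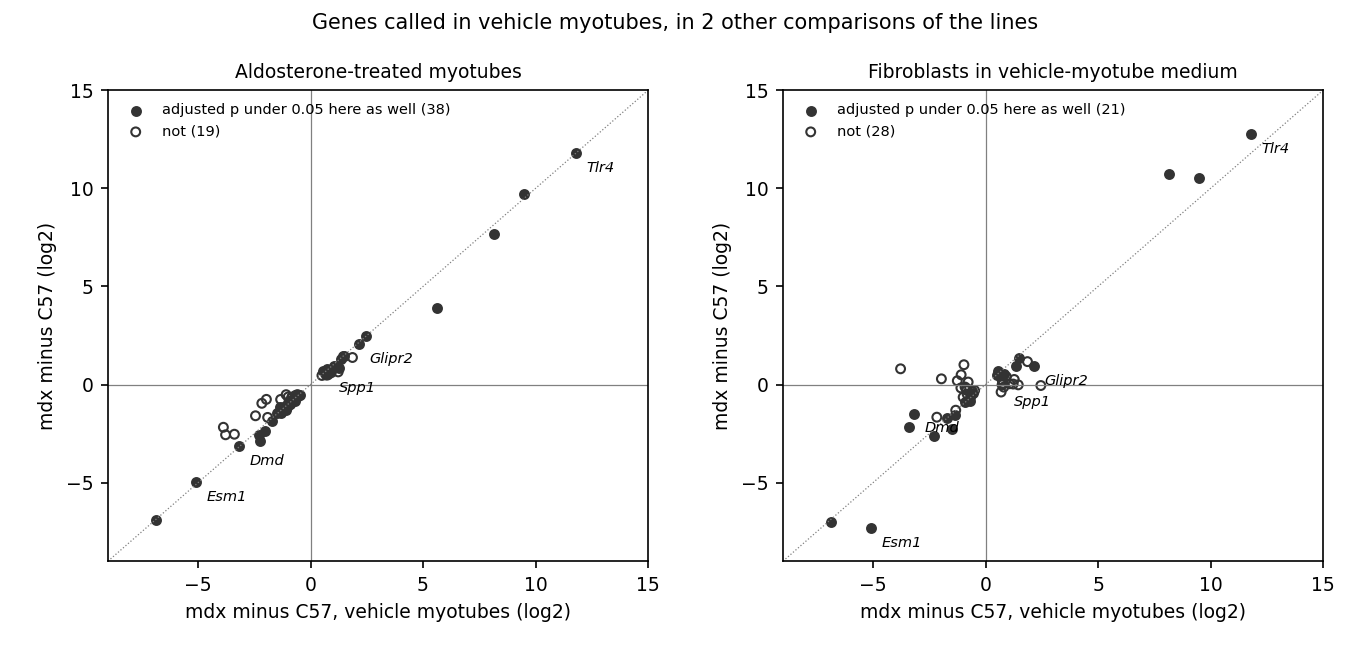
Change of each gene called in vehicle myotubes (horizontal axis, log2 of mdx over C57) against its change in aldosterone-treated myotubes (left) and in fibroblasts given vehicle-myotube medium (right). Filled points are genes with an adjusted p under 0.05 there as well, 38 on the left and 21 on the right, and the dotted line marks equal changes.

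The called genes were unevenly placed in the genome. Chromosome 13 carried 12 of the 57 (21.1%), with 3.89% of the genes tested, so that 1.96% of its tested genes were called, beside 0.362% over all. Chromosome 8 carried 7, or 0.839% of its tested genes. With a window of 5 Mb, 25 called genes had another called gene nearby. Runs of 3 or more called genes, each starting within 5 Mb of the one before, occurred on chromosomes 8 and 13. These stretches were drawn from the calls themselves and so are described without a test. In fibroblasts chromosome 13 also had a larger share than the 1.1% over all genes, with 17 of 640 called (2.66%).

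Between 112 and 115 Mb of chromosome 13 (mm39), 6 of 21 tested genes were called (28.6%), 4 lower and 2 higher in mdx. They run in the order Ddx4, Slc38a9, Esm1, Cspg4b, Gm47040 and Itga2, with Fst next to Gm47040. Ddx4, an RNA helicase of germ cells, had 0.125, 0.0701 and 0.071 CPM in mdx and 0.871, 1.88 and 1.78 CPM in C57 (change -3.87, adjusted p = 0.00558). Slc38a9, the amino acid sensor of the lysosome, was at 12.1, 10.4 and 11.4 CPM in mdx and 18.3, 18.07 and 18.03 CPM in C57 (change -0.68, adjusted p = 0.0112). Cspg4b was at 21.2, 16.5 and 17.8 CPM in mdx and 54.5, 35.5 and 43.1 CPM in C57 (change -1.25, adjusted p = 0.0235). Gm47040, a non-coding gene that overlaps Fst, was at 1.22, 1.40 and 2.70 CPM in mdx and 0.0871, 0 and 0 CPM in C57 (change 5.64, adjusted p = 0.00364), while Fst lay lower, and reads without strand cannot be assigned between the pair. In fibroblasts 4 of 21 tested genes of the stretch were called (19%), Fst (change -1.41, adjusted p = 0.0174), Esm1, Slc38a9 and Ankrd55.

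Between 63 and 68 Mb of the same chromosome 4 of 46 tested genes were called (8.7%), namely Gm47583, Cdk20, Rsl1 and Zfp874a. There 15 (32.6%) had an unadjusted p under 0.05, beside 14.4% of all genes. In fibroblasts 7 of 58 were called there (12.1%). Zfp874a belongs to a cluster of zinc finger genes whose similar sequences may share reads. It was at 3.01, 1.89 and 2.49 CPM in mdx and 6.79, 7.08 and 7.17 CPM in C57 (change -1.49, adjusted p = 0.00394), and its change in fibroblasts was -2.27 (adjusted p = 1.04e-06). Rsl1, a repressor of the same family, had a change of -1.32 (adjusted p = 0.0293). Glrx and Ttc37, described above, are close neighbours further along the chromosome and were both higher in mdx. On chromosome 8, the stretch from 84 to 90 Mb held 3 calls among 91 tested genes (3.3%), Mri1, Gadd45gip1 and Cyld, all lower in mdx. Gadd45gip1, a protein of the mitochondrial ribosome, was at 11.04, 9.19 and 11.7 CPM in mdx and 18.99, 18.1 and 19.1 CPM in C57 (change -0.82, adjusted p = 0.0192). In fibroblasts 6 of 96 genes of that stretch were called (6.25%), Mri1 among them.

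**Figure D5:**
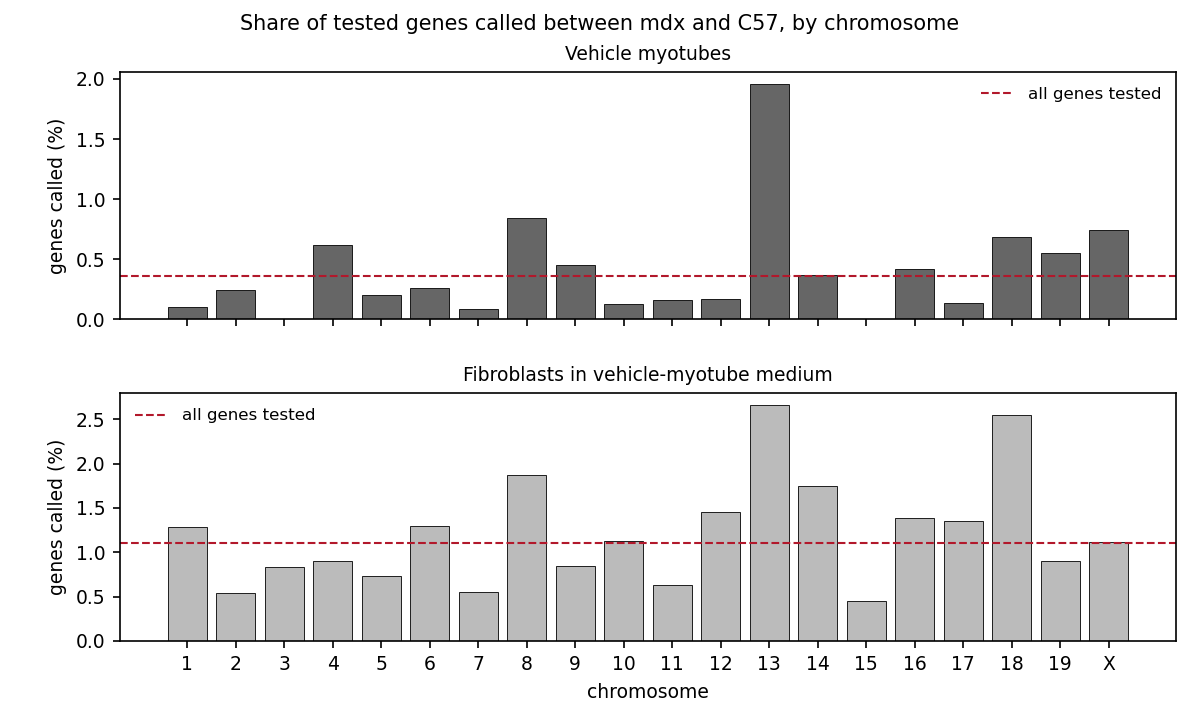
Share of tested genes called between mdx and C57 on each chromosome, in vehicle myotubes (top) and in fibroblasts given vehicle-myotube medium (bottom). The dashed line is the share over all genes, 0.362% in myotubes and 1.1% in fibroblasts, and chromosome 13 stands at 1.96% and 2.66%.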

How the data were processed

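Bulk poly(A) RNA was sequenced with a non-directional kit, per the labels' protocols. The authors deposited raw counts of reads per gene, made with featureCounts 1.5.0-p3 on mm39 per the submitters' processing notes, and FPKM values made from those counts, per the file headers. No source used here names the aligner or the annotation release. The count table holds 56748 genes and 0 columns without a sample. The 12 myotube libraries were fitted together in R 4.3.3 with edgeR 4.0.16 (default filter on low counts, TMM scaling, robust quasi-likelihood test, Benjamini-Hochberg adjustment), the 12 vehicle libraries likewise for the comparison with fibroblasts, and the fibroblasts on their own. A standard error is the change divided by the square root of F. FPKM was used only to compare levels between genes, as means over 3 libraries. Intervals and floors cover counting error only.

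Members and gene lists were chosen with earlier results of these data known. Genes named are called protein-coding genes whose mean reached 2 CPM in a line, up to 15 in each direction by size of change, each called member of a list or else up to 3 members by smallest p, and a fixed set of muscle, hormone and fibrosis genes. Other genes, among them those of the chromosome stretches, were chosen after their values were seen. Other settings were limma 3.58.1, DESeq2 1.42.0, other scalings and filters, a replicate block and leaving out each library. Counts of 15515 genes were simulated for mdx against C57 vehicle myotubes. The genes changed were drawn from those with a mean of at least 2 CPM over the myotube libraries, so recovery below that level was not tested. Of genes changed by 1 on the log2 scale 75% were recovered, and of those changed by 2, 95%, with 7 false calls. These figures describe the simulated counts only. In the measured data, vehicle and aldosterone libraries of a number deviated together. Whether the recovery and false calls hold under such shared deviation was not tested. P-values measure the spread between the labelled replicates.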

Additional observations from a re-analysis of the deposited data

Results flagged for a closer look

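Pmaip1, which encodes the cell death protein NOXA, was the gene whose line difference differed between cell types by the test of that difference itself. In fibroblasts its level was 10.5, 8.90 and 11.1 CPM in mdx, against 23.9, 23.1 and 23.4 CPM in C57 (change -1.20, adjusted p = 0.000149). In vehicle myotubes it was 115.9, 118.2 and 94.9 CPM in mdx and 100.02, 94.6 and 102 CPM in C57 (change 0.15, adjusted p = 0.595). Myotubes minus fibroblasts gave a log2 difference of 1.35 (SE 0.13, edgeR adjusted p = 0.00309). It was called in each fit that left out 1 vehicle myotube library. No fit left out a fibroblast library, where the line difference of Pmaip1 lay, so its dependence on single fibroblast libraries was not tested. The fibroblasts had received medium from vehicle myotubes of their own line, so effects of cell type and of medium cannot be told apart.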

How the results depend on the processing

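The count of called genes, 57 (22 higher, 35 lower in mdx), was 6 (3 and 3) with the 6 vehicle libraries alone, 373 (207 and 166) by DESeq2, 156 (74 and 82) without a filter on low counts, and 20 to 104 when 1 library was left out (10 to 53 higher, 9 to 51 lower). It was 179 (20 and 159) in the 4 vehicle libraries with Xist and their aldosterone partners, a setting chosen after seeing the data, with 33 of the 57 among them. In that setting the lines also differ in macrophage markers, which were high in the C57 vehicle libraries it keeps. Size-factor scaling gave 57, upper-quartile scaling 60, a stricter filter 57 and limma with culture as a random block 85, where Esm1 had an adjusted p of 0.0571. With the replicate number as a block 433 genes were called (205 and 228), but same-numbered mdx and C57 libraries correlated at -0.0264, 0.291 and -0.207 in their deviations from the line means, so the numbers do not pair the lines. The line difference by treatment was called for 0 genes under every setting run. The line difference by cell type, 1 gene, gave 2 with the replicate block, 363 by DESeq2 and 1 to 309 with 1 vehicle myotube library left out. None of the 35 called genes that the naming rule picked changed sign under these settings. For every called gene the libraries of the lines did not overlap, so leaving libraries out could hardly change a sign. The kept signs are therefore no added support, and with the 6 vehicle libraries alone 30 of the 35 were no longer called. Among genes that were not called, Ccn2 (0.37) had -0.0563 in the libraries with Xist. Tgfb1 (0.09) had -0.0764 there and -0.0151 to 0.149 with 1 library left out, the lowest without mdx replicate 2. Myh7 (0.07) had -0.0859 to 0.17 with 1 library left out, the lowest without mdx replicate 3, and Nr3c1 (-0.03) had -0.134 to 0.0506, positive without C57 replicate 3 or mdx replicate 1. The matrix structure median ranged from 0.08 to 0.88 and that of sarcomere genes from -0.40 to -0.19, and that of fibroblast markers from 0.51 to 1.95. The causes were not tested. No other scaling moved the median of all genes by more than 0.031 on the log2 scale.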
